A study of Mus musculus with 9 samples.

Results

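The 9 genes described here encode peptide hormones that are made by islet cells other than alpha cells or by endocrine cells of the gut: Ins1, Ins2, Iapp, Sst, Ppy, Pyy, Ghrl, Cck and Gip. Open chromatin was measured by ATAC-seq, in which a transposase cuts and tags accessible DNA, in alphaTC1, a murine alpha cell line derived from a glucagon-producing tumour. The cells carried an shRNA against Smndc1, an shRNA against Atrx or an empty vector, with 3 biological replicates per group, all harvested 5 days after transduction. Smndc1 encodes a Tudor domain splicing factor and Atrx a chromatin remodeler. One shRNA label is given for each target, so a response to the target and to that shRNA cannot be told apart. Every consensus region that overlaps a gene's body on mm10 (GRCm38), extended by 20 kb on both sides, was taken. This gave 22 of 80827 regions for 8 of the genes and none for Ins1, and Ppy and Pyy share all 5 of theirs, which makes 27 gene-region pairs.

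Each islet endocrine cell type makes mainly 1 of these hormones: insulin and amylin come from beta cells, somatostatin from delta cells, pancreatic polypeptide from PP cells and ghrelin from epsilon cells. Peptide YY, cholecystokinin and GIP are made by enteroendocrine cells of the gut, though not all of them only there. Insulin gene promoters are bound by homeodomain factors such as PDX1, NKX6-1, NKX2-2 and PAX6, by basic helix-loop-helix factors such as NEUROD1, and by MAF proteins. The somatostatin promoter carries a cAMP response element.

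Library totals ran from 5.29 to 8.15 M counts. Replicate 3 of each group had the flattest distribution: the strongest 10% of regions held 38.97% to 39.34% of its counts, against 43.7% to 49.2% in the other 6 libraries. Results are therefore given with TMM factors and with trended offsets, in which a loess curve per library evens out that contrast. At marker genes of the labelled cell type, 8 of 8 alpha cell markers had a region in the gene body. Beside the members among them, 2 of 5 beta cell markers (Mafa and Nkx6-1) and 1 of 3 delta cell markers had one, and the PP and epsilon lists hold members only. So did 2 of 4 exocrine, 2 of 2 endothelial and 1 of 1 immune cell markers, so a body region does not by itself tell cell types apart. In this bulk assay, fewer cells with an open site and less opening per cell cannot be told apart.

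At their start sites the members had no listed region, while Gcg, the glucagon gene, had 1. The sequences shown are RefSeq's for GRCm38.p6, 5′ to 3′ on the gene's strand, and each 250-base window ends at the base before the start site. Entries were found for 8 of the 9 members, all but Ins2. Ins1 and Iapp, which had no region over their starts, are set beside Gcg, which had 1. Capitals mark TAAT and its reverse complement ATTA, the core that homeodomain factors bind, and neighbouring matches may overlap.
Ins1 (chr19:52264047-52264296, plus strand): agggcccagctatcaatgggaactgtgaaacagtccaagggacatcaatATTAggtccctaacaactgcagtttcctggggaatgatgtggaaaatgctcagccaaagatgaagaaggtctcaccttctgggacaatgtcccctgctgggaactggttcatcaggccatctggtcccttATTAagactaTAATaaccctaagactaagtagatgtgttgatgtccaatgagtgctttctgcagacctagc
Iapp (chr6:142298175-142298424, plus strand): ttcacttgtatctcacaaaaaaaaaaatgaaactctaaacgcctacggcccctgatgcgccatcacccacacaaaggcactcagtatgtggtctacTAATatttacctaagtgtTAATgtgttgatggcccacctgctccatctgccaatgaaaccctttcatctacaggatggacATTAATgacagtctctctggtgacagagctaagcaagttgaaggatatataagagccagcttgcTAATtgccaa
Gcg (chr2:62483654-62483903, minus strand): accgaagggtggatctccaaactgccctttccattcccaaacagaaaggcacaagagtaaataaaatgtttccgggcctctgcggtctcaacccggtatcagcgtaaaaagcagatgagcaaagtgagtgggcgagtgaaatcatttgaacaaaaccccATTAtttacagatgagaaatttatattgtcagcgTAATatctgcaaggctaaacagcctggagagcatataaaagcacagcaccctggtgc
The core was found 3 times before Ins1, 5 times before Iapp and 2 times before Gcg, and 54.9% of all 32619 start windows of coding genes hold at least 1. Of the other members, Gip held 5 matches and Sst 1, while Ppy, Pyy, Ghrl and Cck held 0 at the outermost start of each. For Sst, the 30 bases around the cAMP response element are shown, with TGACGTCA in capitals, whose first base lies 48 bases before the start.
Sst (chr16:23890874-23890903, minus strand): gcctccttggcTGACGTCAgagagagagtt
The full element is in 1.56% of all windows, and its core TGACG in 17.9%. Among the 8 members with an entry, Sst alone held the full element. That core had 2 matches in Sst, both within the full element, and 1 in Cck.

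The regions with the highest counts near these genes lie within 1 kb of starts of neighbours. Windows of Tatdn2, near Ghrl, and Mpp2, near Ppy and Pyy, are shown for that reason, with every CG in capitals.
Tatdn2 (chr6:113696800-113697049, plus strand): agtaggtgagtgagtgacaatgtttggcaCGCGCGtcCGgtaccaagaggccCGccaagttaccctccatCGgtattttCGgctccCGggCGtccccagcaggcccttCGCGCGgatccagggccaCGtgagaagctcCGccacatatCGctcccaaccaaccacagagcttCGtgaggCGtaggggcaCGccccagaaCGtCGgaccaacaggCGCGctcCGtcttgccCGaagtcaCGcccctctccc
Mpp2 (chr11:102088516-102088765, minus strand): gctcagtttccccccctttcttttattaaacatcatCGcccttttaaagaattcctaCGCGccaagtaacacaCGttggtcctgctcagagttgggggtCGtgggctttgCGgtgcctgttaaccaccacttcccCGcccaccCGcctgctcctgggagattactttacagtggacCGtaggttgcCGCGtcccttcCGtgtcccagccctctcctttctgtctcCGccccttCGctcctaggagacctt
The 250 bases held 25 CG in Tatdn2 and 14 in Mpp2. In the members, at the outermost start of each, they held 0 in Ins1, 1 in Gip, 2 in Ghrl, 3 in Iapp, 4 in Ppy, 5 in Pyy, 8 in Sst and 9 in Cck. Over all coding genes, 15.7% of windows with 10 or fewer CG had a region over the start, against 78.0% of windows with more. Gcg belongs with the CG-poor windows, with 7, and had a region. The CG count and the split at 10 were chosen after the positions of the regions were seen.

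None of the 9 hormone genes had a consensus region in its body, and none of the 8 with an entry had 1 over a start window, which runs from 250 bases before to 50 bases after the start. Among all 21631 coding genes, 68.1% had a region in the body and 51.9% of those with an entry had 1 over a start. These hormone genes are short (719 to 6300 bp), and among the 5489 coding genes of that length range 34.8% had a body region and 28.8% a start region. Of 32 other peptide hormone genes, 11 had a body region and 2 of 27 a start region, Gcg and Sct, the secretin gene. Of 20 transcription factor genes known to act on hormone genes, 16 had a body region and 9 of 13 a start region. Gcg had 9 regions within 20 kb, 3 of them in its body, and its start region averaged 31.4 CPM (counts over the TMM-scaled library size in M). How the consensus set was merged is not given in the sources used here, so a gene with no listed region is not thereby shown to be closed.

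**Figure D1:**
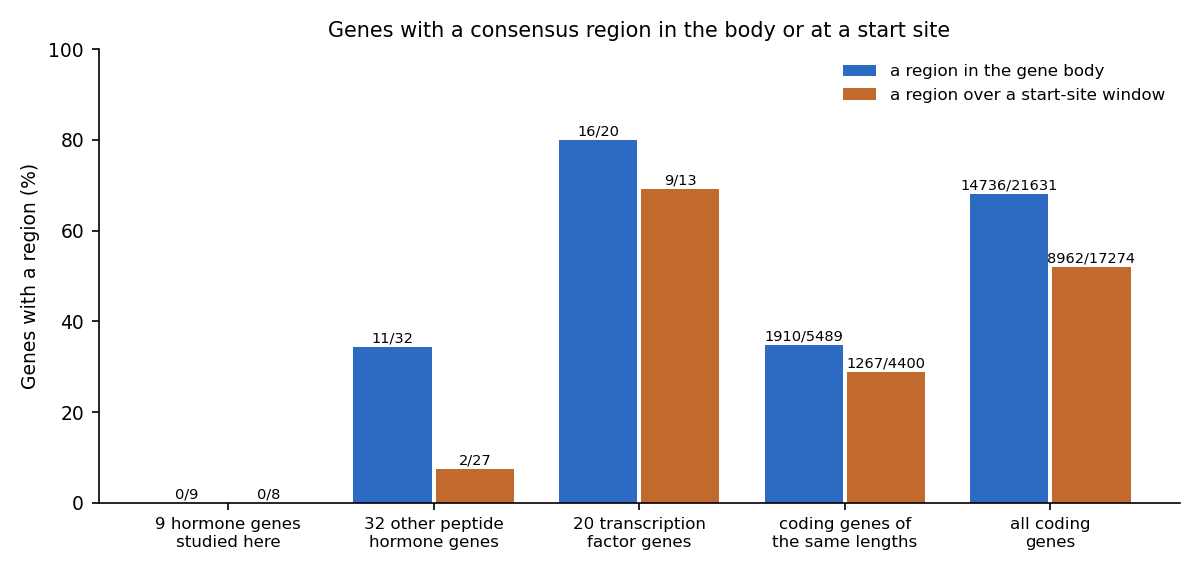
Share of genes with a consensus region in the gene body (blue) or over a start-site window (orange), in percent, with the numbers of genes above each bar. The 9 hormone genes are at 0 of 9 and 0 of 8, against 1910 of 5489 and 1267 of 4400 for coding genes of the same lengths.

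Ins1, one of the insulin genes of mice, lies at chr19:52264297-52265015 and had no region within 20 kb and none within 50 kb. Its nearest regions lay 395.731 kb away on the lower-coordinate side and 224.407 kb away on the higher side, with 1.03 and 1.63 CPM on average. Ins2, the other insulin gene (chr7:142678656-142679726), had 1 region, 2.653 kb outside its lower-coordinate end. This region lies 8.687 kb from a start of the neighbour Igf2. Sst had 3 regions, all upstream of its start, at 7.085, 7.927 and 19.056 kb (6.587, 7.429 and 18.558 kb from its body). Iapp, the amylin gene, had 2 upstream at 8.348 and 15.86 kb and 1 downstream of its body, and all 3 lie inside Slco1a5, an anion transporter gene that spans the same stretch.

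Ppy, for pancreatic polypeptide, and Pyy, for peptide YY, are neighbours on chromosome 11 and share 5 regions. Of these, 3 lie within 1 kb of a start of Mpp2, 1 lies 2.56 kb from Ppy and 1 lies 2.216 kb upstream of Pyy. Of the 3 regions near Ghrl, the ghrelin gene, 2 lie within 1 kb of the start of Tatdn2. Cck, for cholecystokinin, had 3 regions, all on the 3′ side of the gene. Gip, for the incretin GIP, had 4: 1 overlaps an end of Snf8, 1 lies 0.039 kb from an end of Igf2bp1, 1 is inside Ube2z and 1 lies 6.13 kb from Gip. For Snf8 and Igf2bp1 the gene bounds used carry no strand, so a start cannot be told from an end.

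**Figure D2:**
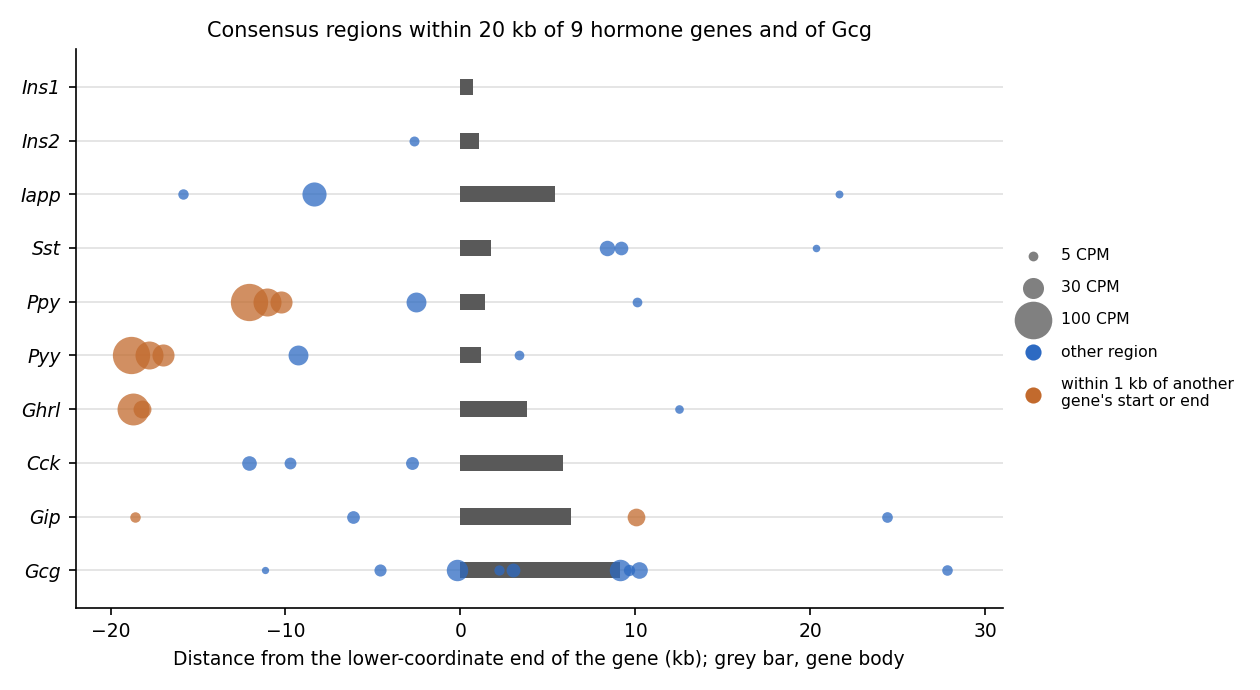
Positions of the consensus regions within 20 kb of each hormone gene and of Gcg, in kb from the gene's lower-coordinate end; grey bars are gene bodies, circle area grows with mean CPM over 9 libraries, and circles sit at the region edge nearest the gene (at the region centre inside a body). No circle falls on a body in the 9 upper rows, Ins1 has no circle, and the large orange circles near Ppy, Pyy and Ghrl are regions within 1 kb of a start or end of another gene.

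Mean levels over the 9 libraries ran from 2.22 to 98.3 CPM, and 4 of the 22 regions lay below 5.21 CPM, the median of all regions. The 7 regions within 1 kb of another gene's start or end had a median of 33.2 CPM, against 8.22 CPM for the other 15. Per kb of region, which allows genes to be compared, Ppy and Pyy together stood at 63.0 CPM (52.1 to 78.6 over the 9 libraries) and Ghrl at 58.2 (45.5 to 74.2). Those ranges overlap, and both lie above Iapp at 20.9 (14.8 to 27.4). Gip at 15.8, Sst at 14.01, Cck at 13.9 and Ins2 at 10.6 CPM per kb (7.79 to 17.6) followed, each overlapping its neighbour in the order. Without the 7 regions at other genes' ends, Ghrl stood lowest at 6.97 CPM per kb (3.05 to 12.3), and Ppy with Pyy at 27.3 (23.0 to 31.6). That split was also made after the positions were seen.

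The highest region of all 22, 12.087 kb from Ppy and 0.671 kb from a start of Mpp2, varied over the 9 libraries most like the end regions of Wee1 (Pearson r = 0.986), Ctdsp2 (0.986) and Mrpl17 (0.984). This is a description over 9 libraries and 14097 end regions, and those libraries share the contrast difference given above.

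With Smndc1 shRNA against empty vector, none of the 22 regions passed the test, in which edgeR's quasi-likelihood F test is adjusted by Benjamini-Hochberg over all 80345 regions tested. All 22 were among those tested. Of all regions 0.156% were called with TMM factors, and the smallest adjusted p among the hormone gene regions was 0.398. With trended offsets 1.14% of all regions were called, again none of these 22, with a smallest adjusted p of 0.148. At an unadjusted p under 0.05, 1 of 22 was past the threshold with TMM factors, against 8.09% of all regions, and 3 of 22 with trended offsets, against 12.4%. DESeq2 and limma voom each called 0 of the 22, where they called 25 and 11 of all regions, and DESeq2 gave no adjusted p for 5. Each had 1 of the 22 at an unadjusted p under 0.05, where DESeq2 had 5528 and limma voom 6579 of all regions. With trended offsets the 3 libraries of each group did not overlap at 3 of the 22 regions, 2 higher and 1 lower, against 16.1% of all regions. The median log2 fold change was 0.07 over the 22 regions, from -0.33 to 0.90, and 0.02 over all regions.

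The Ins2 region (chr7:142675503-142676003) had 4.12, 5.42 and 8.80 CPM with Smndc1 shRNA, 5.62, 4.01 and 5.996 with Atrx shRNA and 4.29, 5.45 and 3.91 with empty vector. The 3 groups overlap, and replicate 3 of Smndc1 shRNA is the highest library. The log2 fold change was 0.41 ± 0.37 (SE) with Smndc1 shRNA against empty vector (95% confidence interval -0.33 to 1.16, edgeR adjusted p = 0.849) and 0.20 ± 0.38 with Atrx shRNA (-0.56 to 0.95, edgeR adjusted p = 0.988). At this depth, 21 to 52 counts per library, a log2 fold change of 1 with Smndc1 shRNA lies within the interval. Insulin is the hormone of beta cells, and no region nearer to either insulin gene was listed.

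The Sst region nearest its start (chr16:23897929-23898768) had 15.4, 18.8 and 19.5 CPM with Smndc1 shRNA, 13.0, 12.2 and 17.0 with Atrx shRNA and 15.5, 13.4 and 13.4 with empty vector. Of the Smndc1 shRNA libraries, 2 lie above all empty vector libraries and the third just below the highest of them with TMM factors; with trended offsets all 3 lie above all 3. The log2 fold change was 0.34 ± 0.23 with Smndc1 shRNA against empty vector (-0.11 to 0.79, edgeR adjusted p = 0.756) and 0.42 ± 0.21 with trended offsets (edgeR adjusted p = 0.396). With Atrx shRNA against empty vector it was -0.0003 ± 0.23, with an interval of -0.46 to 0.46 (edgeR adjusted p = 1.0).

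The Iapp region 8.348 kb upstream (chr6:142289283-142290077) is the strongest of its locus. It had 37.1, 49.5 and 25.4 CPM with Smndc1 shRNA, 55.4, 47.3 and 25.9 with Atrx shRNA and 46.9, 45.6 and 27.0 with empty vector. In each group replicate 3 is the lowest library, the same libraries in which the strongest regions hold the smallest share of counts, and the part of that contrast in these values was not tested beyond the fit with trended offsets. The log2 fold change was -0.10 ± 0.27 with Smndc1 shRNA (edgeR adjusted p = 0.966) and 0.10 ± 0.27 with Atrx shRNA (edgeR adjusted p = 0.99), each against empty vector.

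The region 2.56 kb from Ppy (chr11:102096718-102097371) had 21.6, 25.9 and 30.96 CPM with Smndc1 shRNA, 31.5, 25.4 and 23.3 with Atrx shRNA and 27.9, 27.6 and 25.3 with empty vector. The region 2.216 kb upstream of Pyy (chr11:102110048-102110548) had 5.00, 4.07 and 5.58 CPM with Smndc1 shRNA, 2.89, 5.92 and 6.16 with Atrx shRNA and 2.22, 6.87 and 5.62 with empty vector. At both, the spread within each group is wider than the differences between group means, and the log2 fold changes in the 3 comparisons lay between -0.05 and 0.01, with intervals within -0.51 and 0.45 at Ppy and within -0.84 and 0.82 at Pyy.

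The region 8.726 kb upstream of Ghrl (chr6:113728637-113729137) had 5.29, 1.53 and 5.75 CPM with Smndc1 shRNA, 3.53, 1.53 and 6.16 with Atrx shRNA and 2.22, 1.69 and 3.75 with empty vector. Replicate 2 is the lowest and replicate 3 the highest library of each group, on 8 to 38 counts. The log2 fold change was 0.72 ± 0.53 with Smndc1 shRNA against empty vector (-0.32 to 1.77, edgeR adjusted p = 0.787). The region at the Tatdn2 start, 18.739 kb from Ghrl, had an estimate of -0.33 ± 0.27 (edgeR adjusted p = 0.825), with libraries that overlap with TMM factors and all lie below the empty vector ones with trended offsets.

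The region nearest Cck (chr9:121486272-121487063) had 10.7, 7.63 and 9.98 CPM with Smndc1 shRNA, 11.4, 13.0 and 9.24 with Atrx shRNA and 10.4, 8.82 and 9.997 with empty vector. The groups overlap, and the log2 fold changes were -0.04 ± 0.25 with Smndc1 shRNA and 0.20 ± 0.25 with Atrx shRNA against empty vector. The region nearest Gip, at Snf8 (chr11:96034589-96035508), had 23.2, 22.2 and 20.3 CPM with Smndc1 shRNA, 18.6, 17.9 and 25.9 with Atrx shRNA and 18.8, 20.2 and 19.7 with empty vector. It is the 1 region of the 22 whose Smndc1 shRNA libraries all lie above the empty vector ones with TMM factors, by a narrow margin, where 12.8% of all regions do not overlap in either direction, and with trended offsets its groups overlap. Its log2 fold change was 0.16 ± 0.23 (edgeR adjusted p = 0.918).

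The smallest p with Smndc1 shRNA belonged to the region 18.071 kb from Gip, inside Ube2z, a ubiquitin-conjugating enzyme gene (chr11:96048902-96049402). It had 7.06, 8.81 and 8.97 CPM with Smndc1 shRNA, 6.10, 6.87 and 6.16 with Atrx shRNA and 2.07, 3.76 and 7.498 with empty vector. Replicate 3 of empty vector lies among the Smndc1 shRNA libraries, and the other 2 lie below all of them; with trended offsets all 3 Smndc1 shRNA libraries lie above all 3. The log2 fold change was 0.90 ± 0.34 (0.22 to 1.58, edgeR adjusted p = 0.398), and 0.94 ± 0.33 with trended offsets (edgeR adjusted p = 0.148). Without empty vector replicate 3 it was 1.48 and passed the test (edgeR adjusted p = 0.0355, and 0.0256 with trended offsets). Without empty vector replicate 1 it was 0.57 (edgeR adjusted p = 0.991), and without empty vector replicate 2 it was 0.79 (edgeR adjusted p = 0.944), both with TMM factors. The share of all regions called in these leave-one-out fits is not given here. Against Atrx shRNA the Smndc1 shRNA value was 0.37 ± 0.34 (edgeR adjusted p = 1.0), though the 3 libraries of each group do not overlap.

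**Figure D3:**
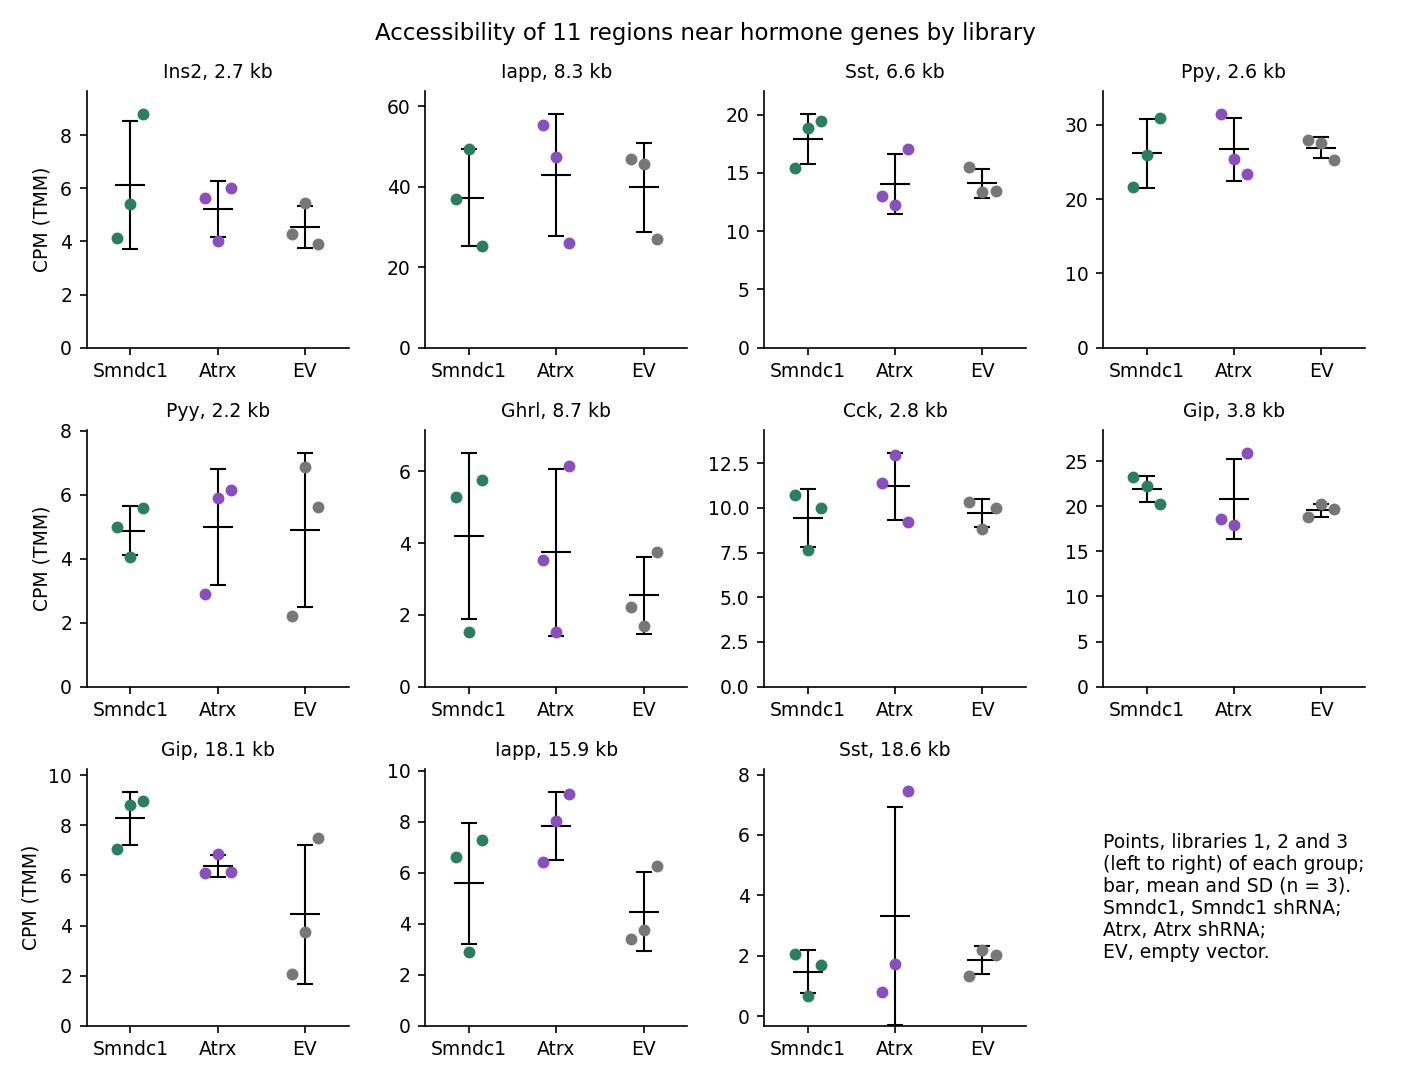
CPM with TMM factors at 11 regions near hormone genes, the nearest region of each gene and the region with the smallest p in each comparison, titled by gene and distance from the gene body; points are libraries, bars the mean and SD (n = 3). Groups overlap in most panels, empty vector replicate 3 stands high at Gip 18.1 kb, and Atrx shRNA replicate 3 stands high at Sst 18.6 kb.

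With Atrx shRNA against empty vector, 0 of the 22 regions were called, with TMM factors or with trended offsets, where 0.0% and 0.276% of all regions were called. The smallest adjusted p was 0.813 with TMM factors and 0.357 with trended offsets. At an unadjusted p under 0.05, 1 of 22 passed with TMM factors, against 5.75% of all regions, and 2 of 22 with trended offsets, against 9.52%. DESeq2 and limma voom each called 0 of all regions, so their 0 of the 22 tells nothing particular to these genes. Each had 1 of the 22 at an unadjusted p under 0.05, where DESeq2 had 3835 and limma voom 4394 of all regions. The median log2 fold change was 0.14 over the 22 regions, with 18 of 22 above 0, and 0.01 over all regions, of which 50.7% were above 0. The empty vector libraries are shared with the comparison above, and the 22 regions are not independent of each other.

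The Iapp region 15.86 kb upstream, inside Slco1a5 (chr6:142281533-142282565), had the smallest p with Atrx shRNA. It had 6.62, 2.88 and 7.27 CPM with Smndc1 shRNA, 6.43, 8.01 and 9.07 with Atrx shRNA and 3.40, 3.76 and 6.25 with empty vector. All Atrx shRNA libraries lie above all empty vector ones, as they do at the region 18.627 kb from Gip by Igf2bp1. This holds at the same 2 of 22 regions with TMM factors and with trended offsets, where 10.5% and 14.9% of all regions do not overlap in this comparison. The log2 fold change was 0.81 ± 0.35 (0.11 to 1.52, edgeR adjusted p = 0.813). At the Gip region it was 0.64 ± 0.37 (edgeR adjusted p = 0.912).

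Between Smndc1 shRNA and Atrx shRNA, 0 of the 22 regions were called, where 0.0759% of all regions were called with TMM factors and 0.6% with trended offsets. The smallest adjusted p was 0.999 and, with trended offsets, 0.66. None passed an unadjusted p under 0.05, against 5.4% of all regions with TMM factors and 9.26% with trended offsets. DESeq2 and limma voom likewise called 0 of the 22, where they called 16 and 7 of all regions. They had 0 of the 22 at an unadjusted p under 0.05, where they had 3507 and 3913 of all regions. DESeq2 gave no adjusted p for 8 of the 22. With TMM factors the groups did not overlap at 1 of the 22 regions, the one inside Ube2z, against 10.2% of all regions. With trended offsets they did not overlap there or at the Iapp region 15.86 kb upstream, which was lower with Smndc1 shRNA, against 13.9% of all regions. The median log2 fold change was -0.03 over the 22 regions and 0.0 over all.

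The smallest p of that comparison was at the region 19.056 kb upstream of Sst (chr16:23909900-23910400), on 4 to 46 counts per library. It had 2.06, 0.678 and 1.69 CPM with Smndc1 shRNA, 0.803, 1.72 and 7.45 with Atrx shRNA and 1.33, 2.20 and 2.03 with empty vector. Replicate 3 of Atrx shRNA alone is high, and the log2 fold change of -1.16 ± 0.71 (-2.57 to 0.25, edgeR adjusted p = 0.999) became 0.25 without that library.

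**Figure D4:**
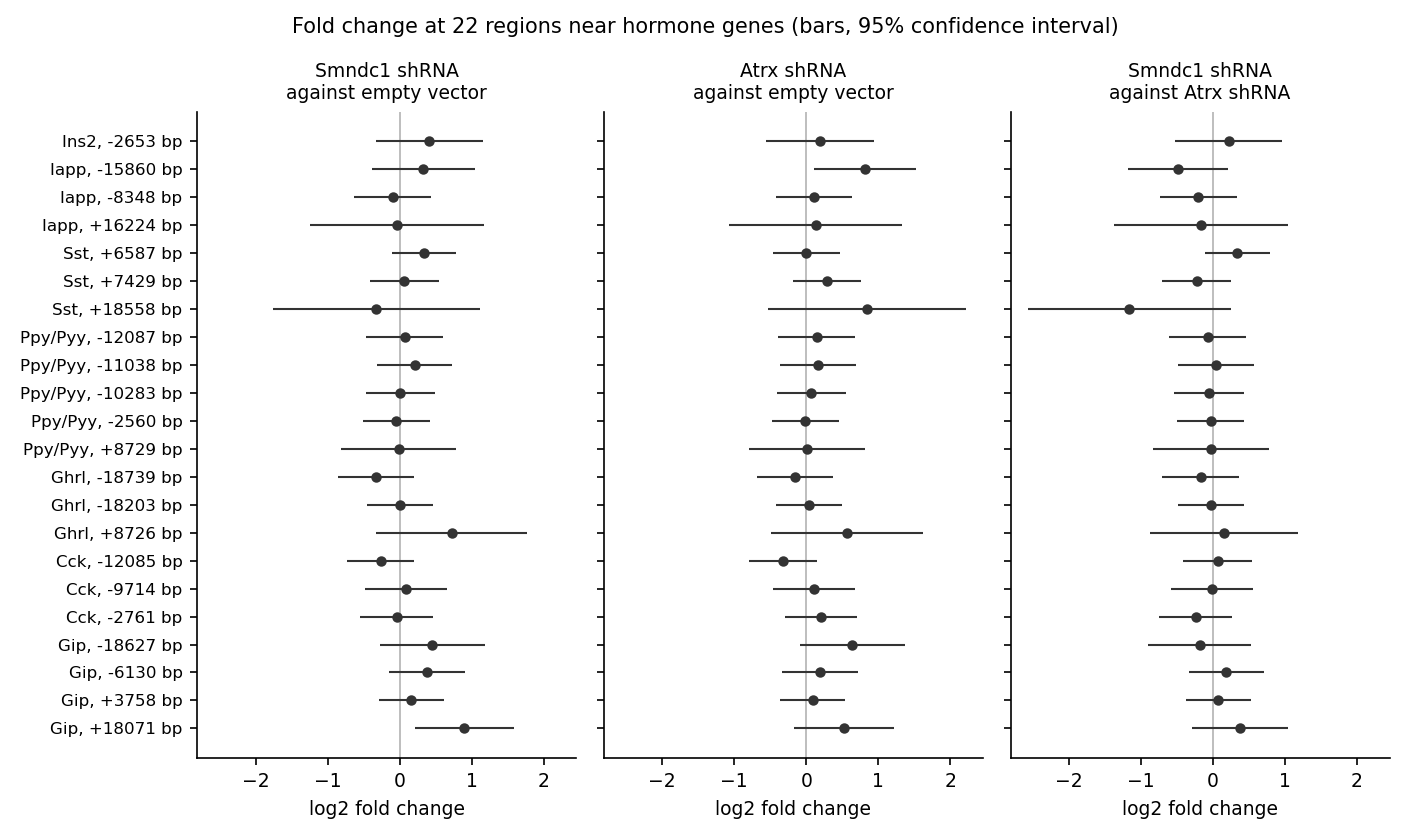
Log2 fold change (points) with its 95% confidence interval (bars) from edgeR with TMM factors for the 22 regions in the 3 comparisons, labelled by gene and signed distance in bp from its body (from Ppy for the shared regions; minus is the lower-coordinate side). Intervals cross 0 except at Gip +18071 bp with Smndc1 shRNA and Iapp -15860 bp with Atrx shRNA, each against empty vector, and neither passed the adjusted test.

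Summed over each gene's regions with TMM factors, the groups overlapped at every locus. Sst stood at 30.5 ± 2.51 CPM in the Smndc1 shRNA group, 30.4 ± 6.34 in the Atrx shRNA group and 26.6 ± 2.35 with empty vector (SD, n = 3 each). Gip stood at 47.7 ± 6.19 CPM in the Smndc1 shRNA group, 44.1 ± 6.43 in the Atrx shRNA group and 37.2 ± 6.05 with empty vector. Over the 7 loci and 3 comparisons, 21 tests in all, the adjusted p of the two-sided exact permutation test ran from 0.884 to 1.0. With trended offsets the Sst sum was 30.7 ± 3.19 CPM in the Smndc1 shRNA group and 25.7 ± 1.56 with empty vector, all 3 libraries above all 3 (log2 ratio 0.26, exact permutation p = 0.1, adjusted over the 21 tests 0.808), and the other 20 tests had overlapping groups. With 3 against 3 libraries 0.1 is the smallest p this test can give before adjustment, so it could not have passed.

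Genes that act on the members or belong to the same class were read out with the same windows. Of 121 tested regions near the 20 transcription factor genes, edgeR called 0 in each comparison with TMM factors, and DESeq2 and limma voom called 0 as well. With Atrx shRNA against empty vector all of these fits called 0 of all regions, so that 0 tells nothing particular to these genes. Of all regions, edgeR with TMM factors called 0.156% with Smndc1 shRNA against empty vector and 0.0759% between the shRNAs. In the same order DESeq2 called 25 and 16 of all regions, and limma voom 11 and 7. Of the 122 regions near these genes, DESeq2 gave no adjusted p for 34 with Smndc1 shRNA against empty vector, 0 with Atrx shRNA against empty vector and 40 between the shRNAs. At an unadjusted p under 0.05 edgeR with TMM factors had 16 of 121 with Smndc1 shRNA against empty vector (8.09% of all regions), 14 with Atrx shRNA against empty vector (5.75%) and 9 between the shRNAs (5.4%). With trended offsets it had 34 (12.4% of all regions), 28 (9.52%) and 18 (9.26%) in the same order. With trended offsets 5 of 121 rose with Smndc1 shRNA against empty vector, near Foxa2, Hhex, Insm1, Neurod1 and Nkx6-1, and none fell, where 1.14% of all regions were called, 343 higher and 574 lower. The Hhex region, 16.81 kb from a gene for a factor required by delta cells, averaged 19.8 ± 1.97 CPM with Smndc1 shRNA and 12.0 ± 0.702 with empty vector (trended log2 fold change 0.80 ± 0.22, edgeR adjusted p = 0.0298; 0.214 with TMM factors). Its call ended without Smndc1 shRNA replicate 1 (edgeR adjusted p = 0.172) and without empty vector replicates 1 or 2. Without empty vector replicate 1 none of the 5 calls held, and the count was 0, against 7 without Smndc1 shRNA replicate 3. The share of all regions called in such leave-one-out fits is not given here, so nothing particular to these genes can be read from such counts. With Atrx shRNA against empty vector, where 0.276% of all regions were called, 3 rose, at Nkx2-2, Nkx6-1 and Pax6, and 1 fell, at Mafa, an activator of insulin genes, and again none was called without empty vector replicate 1 or Atrx shRNA replicate 2, against 6 without Smndc1 shRNA replicate 3. Between Smndc1 shRNA and Atrx shRNA, where 0.6% of all regions were called, 1 fell, inside Glis3, a call that held in 3 of the 9 fits with 1 library left out.

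The other 32 peptide hormone genes include Igf2, whose 1 region is the Ins2 region, so that region is counted in both sets. Of 74 regions near these 32 genes, edgeR with TMM factors, DESeq2 and limma voom each called 0 in each comparison. With Atrx shRNA against empty vector they called 0 of all regions, so that 0 tells nothing particular to these genes. Their calls over all regions in the other comparisons are those given above. DESeq2 gave no adjusted p for 30 of the 74 with Smndc1 shRNA against empty vector, 0 with Atrx shRNA against empty vector and 38 between the shRNAs. At an unadjusted p under 0.05 edgeR had 8 with Smndc1 shRNA against empty vector (8.09% of all regions), 6 with Atrx shRNA against empty vector (5.75%) and 6 between the shRNAs (5.4%). With trended offsets it had 9 (12.4%), 6 (9.52%) and 8 (9.26%) in the same order, and called 1 (1.14% of all regions), 1 (0.276%) and 2 (0.6%) of the 74. The 1 region near Trh, the thyrotropin-releasing hormone gene, averaged 5.13 ± 0.671 CPM with Smndc1 shRNA and 10.96 ± 0.656 with empty vector. With TMM factors all 3 libraries lay below all 3, where 12.8% of all regions do not overlap in either direction. It was called with trended offsets (log2 fold change -1.02 ± 0.29, edgeR adjusted p = 0.0438, and 0.0751 with TMM factors). This call held in 2 of the 9 fits with 1 library left out, those without Atrx shRNA replicate 1 or 3. Between Smndc1 shRNA and Atrx shRNA, a region 14.85 kb from Nppa, for atrial natriuretic peptide, averaged 9.96 ± 1.28 CPM with Smndc1 shRNA and 3.96 ± 0.994 with Atrx shRNA (trended 1.32 ± 0.33, edgeR adjusted p = 0.0227). Its call held in 5 of 9 such fits, and ended without replicate 1 or 2 of either shRNA. The region 0.172 kb from Gcg, outside its body on the 3′ side and not at its start, averaged 39.1 ± 8.13 CPM with Smndc1 shRNA and 19.5 ± 1.495 with Atrx shRNA. It was called with trended offsets (1.004 ± 0.16, edgeR adjusted p = 4.31e-06, and 0.121 with TMM factors), a call that held in 9 of 9 such fits. It also fell with Atrx shRNA against empty vector, which averaged 35.15 ± 11.2 CPM (trended -0.78 ± 0.16, edgeR adjusted p = 0.00343; 0.47 with TMM factors). That call held in 6 of 9 such fits and ended without Atrx shRNA replicate 1 or 2 or empty vector replicate 1. In each of these comparisons it was the 1 region called of the 9 near Gcg with trended offsets. The region over the Gcg start was not called (trended, edgeR adjusted p = 0.763 between the shRNAs and 0.64 with Atrx shRNA against empty vector).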

How the data were processed

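ATAC-seq libraries of alphaTC1 cells (9, in 3 groups of 3, 75 bp paired-end reads) were analysed from the deposited table of raw counts per consensus region, which the authors left unscaled, and the deposited list of region bounds on mm10. The submitters' processing notes name MACS2 2.2.7.1, bedtools 2.27.1, Bowtie2 2.4.4, deepTools 3.5.1 and SAMtools 2.8.0 without saying what each did. Neither the merging of regions nor the thing counted (reads, fragments or insertions) is stated in the sources used here. All count columns matched a labelled sample (0 unmatched).

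Genes were placed with RefSeq bounds and start windows of GRCm38.p6. Counts were tested with edgeR 4.0.16 in R 4.3.3 (quasi-likelihood, robust, filterByExpr with a minimum count of 10, TMM factors, all 9 libraries in 1 fit) and called at a Benjamini-Hochberg adjusted p under 0.05. Levels are CPM on TMM-scaled library sizes. Trended offsets used a loess span of 0.3 per library. Alternatives were DESeq2 1.42.0, limma 3.58.1 (voom), RLE factors, other filters, 6 libraries, a replicate block, libraries left out and windows of 10 and 50 kb. The code was tested on simulated counts with known changes in either direction, set in Smndc1 shRNA at regions above a count floor. Against empty vector, 40 of 100 changes of 2-fold and 76 of 100 of 4-fold were called, with TMM factors and with trended offsets alike. A region that was not called is therefore not shown to be unchanged. The simulated libraries shared a common mean profile and lack the contrast of the replicate 3 libraries. These counts therefore cannot compare TMM factors with trended offsets on the real libraries. Summed levels were compared by a two-sided exact permutation test with scipy 1.17.1, and tables and figures used Python 3.11.15, pandas 2.3.3, numpy 2.4.6 and matplotlib 3.10.9.

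The leave-one-out fits and other tools for the gene lists, and the overlap of libraries under trended offsets, were added after seeing the data. Members, gene lists and markers were chosen with earlier results of these data known. Regions given with all 9 values follow a rule: the nearest region of each gene, any region called, and the region with the smallest p in each comparison. Motifs were searched on both strands; beside TGACGTCA, TGACG and TAAT these were CANNTG (66.2% of windows), TATAAA (12.4%) and TGCTGAC (3.84%). Accessibility at Smndc1 and Atrx does not check an shRNA, which acts on the RNA.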

Additional observations from a re-analysis of the deposited data

How the results depend on the processing

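Over 30 alternatives per comparison, the count of hormone gene regions called stayed at 0 with Atrx shRNA against empty vector and with Smndc1 shRNA against Atrx shRNA. With Smndc1 shRNA against empty vector it was 0 to 1 over the fits that leave out 1 library each, with 1 call, the Gip region at 18.071 kb, when empty vector replicate 3 was left out. Its log2 fold change ran from 0.57 to 1.48 over those fits, and the share of all regions called in each of them is not given here. The SE of a log2 fold change ran from 0.23 to 0.72 over the 22 regions with TMM factors and from 0.11 to 0.64 with trended offsets. The parts of depth and of spread between libraries in it were not separated. As for pairing, deviations from group means correlated at -0.039 to 0.419 over the 9 same-numbered pairs and at -0.375 to 0.299 over the other 18, with the 3 pairs among replicate 3 libraries (0.419, 0.352 and 0.313) highest of all 27; not every same-numbered pair is over 0.1, so the numbers were not used as pairs. The replicate block called 0 regions in each comparison (smallest edgeR adjusted p 0.0886, 0.306 and 0.631; with trended offsets 0.0575, 0.204 and 0.491, in the order Smndc1 shRNA against empty vector, Atrx shRNA against empty vector, Smndc1 shRNA against Atrx shRNA).

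With all 9 libraries no region had a called direction, so the changes of sign that follow are of uncalled estimates; 133 of the log2 fold changes and 31 of the log2 ratios of summed levels changed sign, and the cause was not tested except where libraries or regions were removed. All values are log2, and distances here are from the gene body. The Sst regions at 6.587 and 18.558 kb are those 7.085 and 19.056 kb upstream of its start. With Atrx shRNA against empty vector, the Sst region at 6.587 kb (-0.0003) became 0.0018 with DESeq2, 0.0024 with RLE factors, 0.063 with a mean count of at least 50, 0.0007 with no filter, 0.0001 with 6 libraries, 0.080 with trended offsets and 0.058 with the replicate block and trended offsets. The region 2.56 kb from Ppy (-0.01) became 0.0002 with DESeq2, 0.0005 with RLE factors, 0.0225 with a mean count of at least 50, 0.020 with trended offsets, 0.021 with the replicate block and trended offsets and 0.045 without replicate 3 of every group. With Smndc1 shRNA against empty vector that region (-0.05) became 0.0295 with a mean count of at least 50, 0.030 with trended offsets and 0.012 with the replicate block and trended offsets, and against Atrx shRNA (-0.03) 0.0071 with a mean count of at least 50 and 0.0099 with trended offsets. The region 2.216 kb from Pyy became 0.105 with limma voom, 0.097 with the replicate block and 0.049 with the block and trended offsets for Smndc1 shRNA against empty vector (-0.01), and 0.060, 0.057 and 0.034 in the same order against Atrx shRNA (-0.03); for Atrx shRNA against empty vector (0.01) it became -0.028 with trended offsets. The Cck region at 2.761 kb with Smndc1 shRNA against empty vector (-0.04) became 0.035 with a mean count of at least 50, 0.041 with trended offsets and 0.036 with the replicate block and trended offsets.

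Without replicate 3 of every group, the Ins2 region became -0.047 with Smndc1 shRNA against empty vector, -0.0026 with Atrx shRNA against empty vector and -0.044 between the shRNAs, and its summed level -0.029, -0.0155 and -0.013. The Sst region at 18.558 kb became -0.50 with Atrx shRNA against empty vector and 0.14 between the shRNAs, the region 2.216 kb from Pyy -0.071 and 0.048, the Gip region at 3.758 kb -0.085 with Atrx shRNA against empty vector, and the Sst summed level -0.008 there. With a window of 10 kb, summed levels became -0.037 at Ppy and Pyy, 0.72 at Ghrl and 0.0245 at Cck with Smndc1 shRNA against empty vector, -0.0063, 0.55 and 0.17 with Atrx shRNA against empty vector, and 0.16 at Ghrl between the shRNAs. The Cck sum with Atrx shRNA against empty vector became 0.057 with a window of 50 kb and 0.0235 with trended offsets, and the Ppy and Pyy sum between the shRNAs 0.012 with trended offsets.

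With each library left out in turn, the ranges that cross 0 with Smndc1 shRNA against empty vector were -0.35 to 0.11 at Iapp 8.348 kb, -0.21 to 0.16 at Ppy 2.56 kb, -0.38 to 0.34 at Pyy 2.216 kb, -0.14 to 0.17 at Cck 2.761 kb and -0.87 to 0.016 at Sst 18.558 kb, and for summed levels -0.22 to 0.12 at Iapp and -0.091 to 0.19 at Ppy and Pyy. With Atrx shRNA against empty vector they were -0.13 to 0.36 at Iapp, -0.16 to 0.19 at Sst 6.587 kb, -0.15 to 0.086 at Ppy, -0.35 to 0.37 at Pyy, -0.13 to 0.32 at Gip 3.758 kb and -0.59 to 1.31 at Sst 18.558 kb, and for summed levels -0.0395 to 0.22 at Ppy and Pyy, -0.21 to 0.059 at Ghrl and -0.15 to 0.0665 at Cck. Between the shRNAs they were -0.14 to 0.44 at Ins2, -0.46 to 0.030 at Iapp, -0.23 to 0.14 at Ppy, -0.31 to 0.16 at Pyy, -0.24 to 0.71 at Ghrl 8.726 kb, -0.085 to 0.37 at Gip and -1.63 to 0.25 at Sst 18.558 kb, and for summed levels -0.13 to 0.45 at Ins2, -0.12 to 0.18 at Sst, -0.21 to 0.12 at Ppy and Pyy and -0.17 to 0.045 at Cck.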
